A study of Zea mays and Triticum urartu with 3 samples.

Results

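The library described here was made from young leaves of the genotype TMU38 of *Triticum urartu*, a wild diploid wheat, and it is titled as an lncRNA library. All 45337 loci of its table were taken, out of 136722 in the 3 tables of the series. The other 2 libraries came from the maize inbred line B73, from RNA precipitated with an antibody to the centromeric histone CENH3 and from its input, and they are not compared with the wheat library. The labels name no treatment, plant age or number of plants for TMU38, and no antibody, although the extraction text shared by all 3 samples describes the precipitation. How the wheat RNA was selected is therefore not known from the labels. The study used the reads of this library to look for back-spliced RNAs of wheat retrotransposons. There was 1 wheat library, so no value below has a replicate check and no test was made.

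*T. urartu* carries the A genome, the relative of one of the subgenomes of pasta wheat and bread wheat. Most of such a genome consists of transposable elements, and genes lie more densely towards the chromosome ends. In a young leaf, mRNAs for photosynthetic proteins are usually among the most abundant. Long noncoding RNAs are transcripts without a protein product. They are often found as assembled transcripts that match no annotated gene, which shows only that the annotation lacks them and not that they are noncoding.

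Each locus had an FPKM, which is the number of fragments scaled by transcript length and by library size, with a lower and an upper limit. The fragments behind each FPKM were derived as (2 × FPKM/(upper limit − FPKM)) squared, which assumes that each limit is set 2 Poisson SDs away from the value. They are called implied fragments. Loci with 10 or more were counted as detected. FPKM was above 0 at 22949 loci, and 21458 (47.3%) were detected. All 22388 loci listed at 0 carried a gene identifier. The listed loci held 9863549 implied fragments. All loci were on the chromosomes Tu1 to Tu7, and no chloroplast or mitochondrial locus was listed.

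The loci fell into those with a TuG1812 gene identifier and those without one. With an identifier there were 37398 loci, carrying 37560 distinct identifiers, and each identifier named the chromosome on which its locus lay. The other 7939 loci had been assembled from the reads and carried no identifier, although some overlap a locus that does. The files do not pair the identifiers with gene names, and the reference table at hand covers maize only. The products of the genes below are hence not known, the leaf label could not be checked against marker genes, and most loci are given by position.

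Loci without an identifier were numerous but held few fragments. They made up 17.5% of the listed loci and 36.1% of the detected loci (95% Wilson interval 35.4% to 36.7%), but only 8.05% of the fragments. The other 92.0% of the fragments at listed loci lay at loci with a gene identifier, in a library titled as lncRNA. Being listed meant being detected for loci without an identifier: all 7939 were above 0 and 97.5% had 10 or more fragments, since they entered the table through their reads. With an identifier, 15010 loci (40.1%) were above 0 and 13714 (36.7%, 36.2% to 37.2%) were detected.

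Among loci with an identifier, 30949 were kept under the annotated record and 6449 had been rebuilt by the assembly around an annotated gene. Of the annotated records, 25.5% were detected, with a median of 72.0 fragments and 2.59 FPKM among those detected. Of the rebuilt loci, 90.3% were detected, with a median of 93.2 fragments and 4.64 FPKM. The assembly works from reads, and 94.2% of the rebuilt loci had a nonzero FPKM, against 28.9% of the annotated records. The higher detected share of the rebuilt loci therefore follows at least in part from how they were defined. The rebuilt loci were also longer, with a median span of 4826 bp against 1896 bp. They held 27.6% of the fragments and the annotated records 64.4%.

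The order of the 2 kinds of loci turned over with the measure. Detected loci without an identifier had a median of 23.0 fragments (quartiles 16.0 and 34.0), against 81.0 (33.6 and 211) with an identifier. Their median FPKM, in contrast, was 46.0 (15.6 and 247), against 3.36 (1.31 and 9.04). A locus without an identifier thus had fewer fragments and a higher FPKM than one with an identifier, at the median. Only 6.83% of the detected loci without an identifier had 100 or more fragments, against 44.1% of those with one. In all, 6582 of the 7939 loci without an identifier (82.9%) had between 10 and 50 fragments.

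**Figure D1:**
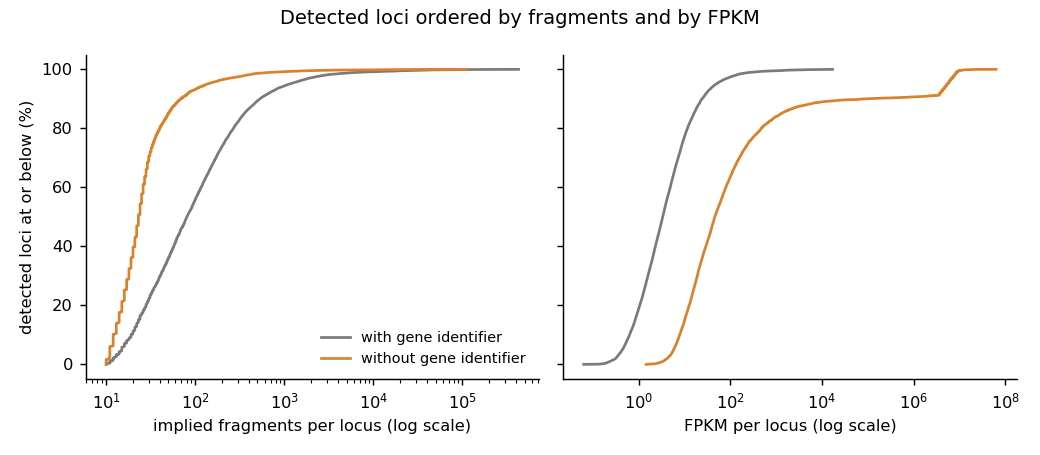
Cumulative share of detected loci (y axis, %) by implied fragments (left) and by FPKM (right), both x axes on a log scale, for 13714 loci with and 7744 without a gene identifier. The loci without an identifier lie to the left by fragments (median 23.0 against 81.0) and to the right by FPKM (46.0 against 3.36), and those at the far right reach 63082300 FPKM.

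Ranks by FPKM and by fragments selected different loci. All of the 100 highest loci by FPKM lacked an identifier, and none of them was among the 100 with most fragments, of which 9 lacked one. Among the 1000 highest by each measure, 985 lacked an identifier by FPKM and 73 by fragments, and 24 loci (2.40% of each list) were in both. The highest locus with an identifier stood at rank 883 by FPKM. Across the 13714 detected loci with an identifier, FPKM and fragments rose together (Spearman's rho 0.81), whereas across the 7744 without one the coefficient was −0.28. In the latter, FPKM followed the span of the locus (rho −0.86), and with an identifier it hardly did (−0.11). These coefficients describe loci of 1 library that share its depth, and FPKM and fragments are derived from the same estimates.

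The FPKM of a single fragment was examined next. FPKM divides by an effective length, the number of positions at which a fragment fits into the transcript, so 1 fragment counts for more where few positions exist. For loci without an identifier, 1 fragment was worth 0.0935 FPKM at the median for spans of 701 to 1000 bp. It was worth 1.70 FPKM at 251 to 300 bp, 68.4 at 151 to 200 bp and 332012 at up to 125 bp. Loci under 300 bp accordingly held 95.7% of the summed FPKM, with 1.55% of the fragments. Those under 150 bp alone held 93.0%, with 0.167% of the fragments. The FPKM sum therefore describes very short loci, and fragments are used below to compare chromosomes.

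The shortest loci had a single preferred size. Of the loci without an identifier, 661 spanned exactly 125 bp, whereas the next most common span, 241 bp, was found at 55 loci. The length of 125 bp is also the read length given for the series. These loci had 10 to 41 fragments each, with a median of 17, and 3320120 to 13612500 FPKM. Together they held 83.9% of the summed FPKM but 0.119% of the fragments. At 124 bp there were 13 loci, with 830028 FPKM per fragment, and at 126 bp there were 34, with 143934, so a difference of 1 bp changed the FPKM of the same number of fragments more than 2-fold. Another 49 loci carried the value of the 125-bp loci over longer spans, of 379 bp at the median and up to 28105 bp. The effective length behind the values of these 49 was thus that of the 125-bp loci, whatever their span. All chromosomes had 125-bp loci, from 60 on Tu6 to 109 on Tu3.

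The highest FPKM of the library, 63082300 (limits 34138200 to 92026400), was at Tu3:384048200-384048322, a locus of 123 bp with 19.0 fragments. The next, at Tu4:567941830-567941953, had 24070900 FPKM (15131200 to 33010600) from 29.0 fragments over 124 bp. Both limits are wide: they lie 45.9% and 37.1% of the value to either side of it.

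The same relation gives the scale of the library. For an unspliced locus longer than a fragment, the effective length is the span minus the mean fragment length plus 1, so that the inverse of FPKM per fragment lies on a straight line against span. Between 500 and 1500 bp, loci without an identifier occurred at 442 different spans, and at 279 of these the upper edge lay within 0.5% of a single line. Its slope corresponds to 24630000 fragments behind the FPKM scale, and its intercept to a mean fragment length of 284 bp. The implied fragments of all listed loci amount to 40.05% of that scale. On it, 1 fragment at 1000 effective bases is worth 0.0406 FPKM, and 3 fragments, the upper limit that a count of 0 allows, are worth 0.122 FPKM. The level that a 0 allows moves with length, since 1 fragment was worth 4.33 FPKM at the median for loci with an identifier of 201 to 250 bp and 0.0264 FPKM for those over 5000 bp.

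**Figure D2:**
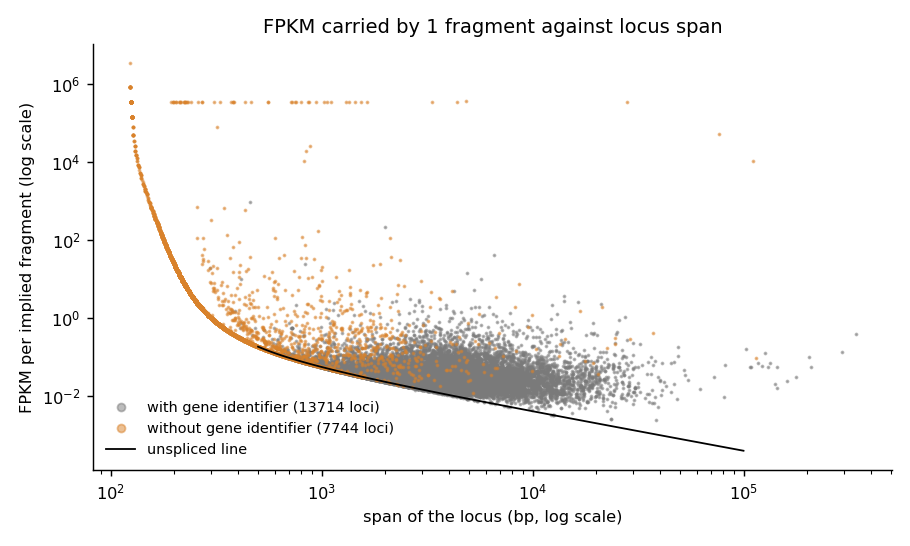
FPKM per implied fragment (y axis, log scale) against the span of the locus in bp (x axis, log scale) for detected loci with (grey) and without (orange) a gene identifier, with the line expected of unspliced loci for 24630000 fragments and a mean fragment of 284 bp (black). Below about 1000 bp many loci without an identifier lie on the line, at longer spans most lie above it (20.5% are on it), and the 332012 FPKM per fragment of 125-bp loci recurs as a horizontal row of points at longer spans.

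On the same line, a transcript length could be derived for every locus and set against its span. A locus whose derived length is within 2% of its span has the value of an unspliced locus. Why a derived length is shorter than the span was not tested, since the table holds no exons or isoforms. Of 516 detected loci without an identifier that spanned 1000 bp or more, 106 (20.5%, 95% Wilson interval 17.3% to 24.2%) had a derived length within 2% of the span. Of 12948 such loci with an identifier, 947 (7.31%, 6.88% to 7.78%) did. The share was thus higher without an identifier. The intervals did not overlap, but they cover counting only, and the loci without an identifier were also shorter at the median. The line had moreover been fitted on loci of that kind up to 1500 bp. Among loci with a nonzero FPKM, implied fragments were also whole more often without an identifier (89.4%) than with it (55.6%). Part of this may follow from count size, with medians of 23.0 fragments without and 68.0 with an identifier. At large counts, the rounding of FPKM and its limits alone can make implied fragments not whole. Where they are not whole beyond rounding, a wider limit may shorten the derived length and move a locus off the line. How much this adds to the difference was not tested. The share within 2% ranged over the chromosomes from 16.7% to 25.4% without and from 6.79% to 8.01% with an identifier. A derived length under 50% of the span was found at 65.7% (61.5% to 69.7%) and 64.7% (63.9% to 65.5%), respectively. The median derived length was 638 nt without and 1466 nt with an identifier, for median spans of 1601 and 3977 bp. These shares depended on the span limit. Among detected loci of 500 bp or more, 49.5% without and 10.4% with an identifier lay within 2%, and 31.6% and 61.5% had a derived length under 50% of the span.

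Among loci of 1000 bp or more, those on the line without an identifier had more fragments. They had a median of 296 fragments, against 72.0 at the other long loci without an identifier, and held 76.6% of the fragments of these 516 loci. Of the 8 long loci without an identifier that had 10000 or more fragments, 7 lay on the line. With an identifier the medians were 77.0 fragments on the line and 83.5 off it. The gap without an identifier was much smaller among loci of 500 bp or more, where the medians were 67.2 fragments on the line and 55.6 off it. Fragments and the place on the line are not independent, since the derived length is itself worked out from the implied fragments. A wider FPKM limit lowers the fragments of a locus and can also move it off the line. Part of the gap may therefore be built in, and how much was not tested.

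Loci without an identifier lay both at and away from loci with one. The span of 3052 (38.4%) overlapped that of a locus with an identifier, and the share ranged from 36.9% on Tu7 to 40.9% on Tu4. How much overlap random positions would give was not worked out, so 38.4% is not read as high or low. The table gives no strand, so an overlap does not tell an antisense or intronic transcript from a part of the gene. The other 4887 lay 15.9 kb from the nearest locus with an identifier at the median (quartiles 2.34 and 104 kb). Within 1 kb there were 791, and 1253 lay more than 100 kb away. Overlapping and separate loci had similar medians of 22.0 and 24.0 fragments, but 89.7% of the fragments were at separate loci, and of the loci with 100 or more fragments 493 were separate and 36 overlapped.

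The chromosomes were examined next. Listed loci ranged from 4994 on Tu4 to 7588 on Tu2, which is 8.06 per Mb on Tu4 and up to 10.5 per Mb on Tu5, with the length taken as the end of the last listed locus. Detected loci ranged from 2525 on Tu6 to 3498 on Tu2. Fragments were spread much less evenly. Tu2 held 25.3% of the fragments and Tu5 21.6%, followed by Tu7 with 16.5%, Tu4 with 10.8%, Tu6 with 8.87%, Tu3 with 8.69% and Tu1 with 8.28%. Tu3 had nearly as many detected loci as Tu2 (3411) but far fewer fragments.

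A few loci held most of the fragments of both high chromosomes. Across the library, 125 loci had 10000 or more fragments and together held 61.0% of all fragments. Tu2 had 33 of them, Tu5 and Tu7 20 each, Tu4 and Tu6 17 each, Tu3 11 and Tu1 7. They accounted for 74.3% of the fragments of Tu2 and 72.1% of those of Tu5, but for 30.4% of those of Tu3 and 36.9% of those of Tu1. Without these 125 loci, chosen after their values were seen, the chromosome shares ran only from 12.2% on Tu6 to 16.6% on Tu2. This is close to the shares of detected loci, which ran from 11.8% on Tu6 to 16.3% on Tu2. The remaining fragments came to between 173 on Tu7 and 188 on Tu6 per detected locus.

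**Figure D3:**
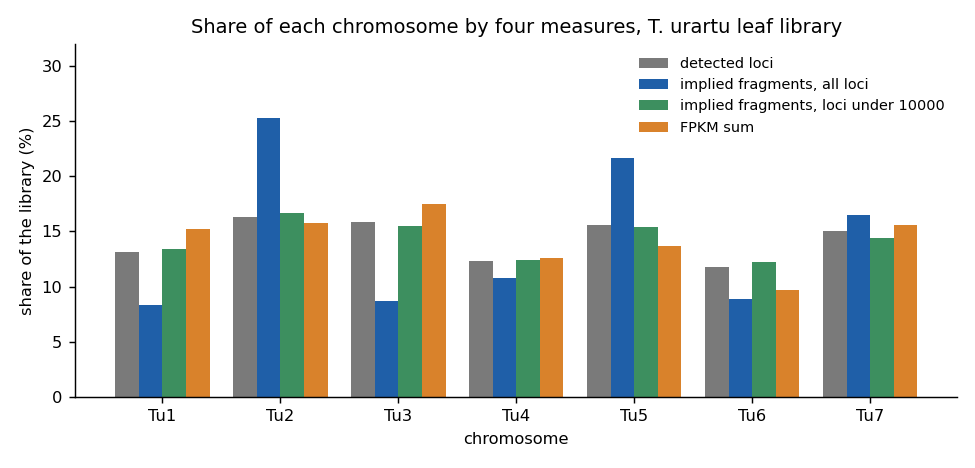
Share of the library (y axis, %) held by each chromosome, as detected loci (grey), implied fragments at all loci (blue), implied fragments at loci with fewer than 10000 (green) and FPKM sum (orange), in 1 library. Tu2 (25.3%) and Tu5 (21.6%) stand out by fragments, the grey and green bars nearly coincide on every chromosome, and by FPKM sum the highest share is that of Tu3 (17.5%).

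The typical gene was alike on all chromosomes. Detected loci with an identifier had medians from 76.8 fragments on Tu7 to 84.3 on Tu1, and from 3.15 FPKM on Tu2 to 3.67 on Tu1. Their upper quartiles ran from 199 fragments on Tu7 to 237 on Tu6. Tu2, with most fragments in all, thus had the lowest median FPKM, and Tu1, with fewest, the highest. The detected share of loci with an identifier was 41.6% on Tu4 (95% Wilson interval 40.1% to 43.2%), above the interval of every other chromosome, and 33.9% on Tu7 (32.7% to 35.1%), while the other 5 ranged from 35.7% to 37.3%. Tu4 was also the chromosome with the fewest loci per Mb. Loci without an identifier had a median of 23.0 or 24.0 fragments on each chromosome, a median FPKM between 43.5 and 50.3, and a median span between 268 and 273 bp.

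The number of loci that carried 50% of a chromosome's fragments was 5 on Tu5, 7 on Tu7 and 9 on Tu2. It was 13 on Tu4, 22 on Tu6, 26 on Tu1 and 54 on Tu3. Over the whole library it was 59, and 3537 loci carried 90%. By this count Tu3 was the most even chromosome and Tu5 the least even. At other levels the order at the uneven end differed, since the first locus held 26.2% of Tu7 against 14.2% of Tu5, and loci of 10000 or more fragments held a larger share of Tu2 than of Tu5.

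**Figure D4:**
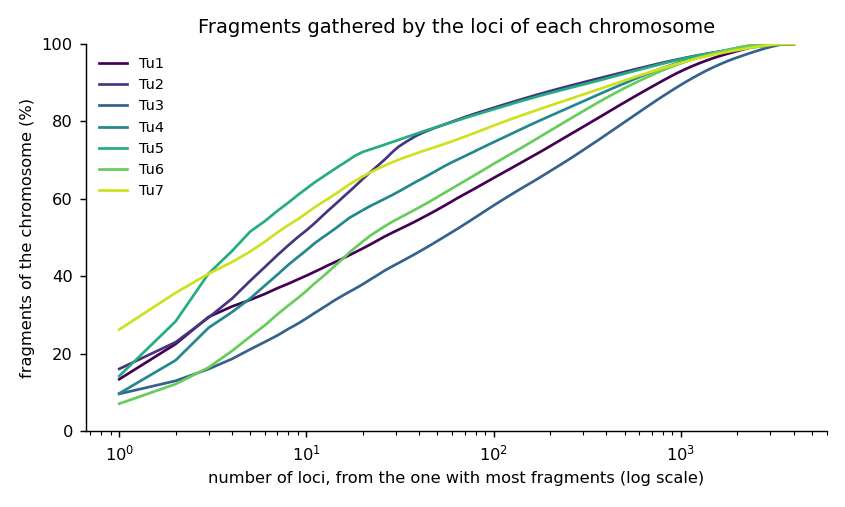
Cumulative share of the implied fragments of each chromosome (y axis, %) against the number of loci taken from the one with most fragments downwards (x axis, log scale). The curve of Tu5 reaches 50% at 5 loci and that of Tu3, the last to do so, at 54.

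On Tu5, 3 loci with an identifier held 40.7% of the chromosome and 8.80% of the library. TuG1812G0500001981.01 (Tu5:347701038-347702249) had 17006 FPKM (limits 16944 to 17068) and 300941 fragments. TuG1812G0500001978.01 (Tu5:347398644-347399864) had 16880 FPKM (16818 to 16941) and 303301 fragments. Their limits were just apart, with a ratio of 1.01, and their order differed between FPKM and fragments. The pair lay 301 kb apart with 3 listed loci between them, of which 2 were detected. Their spans were 1212 and 1221 bp, with derived transcript lengths of 1001 and 1012 nt. Whether they are near-identical copies that share reads was not tested, since no wheat sequence was used here, and their single values are uncertain to that extent. The third locus, at Tu5:500862601-500863824, had 12652 FPKM (12603 to 12701), 263446 fragments and a derived length of 1128 nt over 1224 bp.

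Tu2 had no such single dominant group. Its locus with most fragments, Tu2:261004851-261009560, had 11589 FPKM (11552 to 11625) and 401028 fragments, which is 16.1% of the chromosome. It was rebuilt by the assembly, and its derived length was 1688 nt over a span of 4710 bp. The following loci, named after their values were seen, were Tu2:192040591-192041987 with 172111 fragments, Tu2:547072642-547074665 with 158864, Tu2:300265466-300266957 with 122039 and Tu2:250742303-250743549 with 114496. The first 10 loci held 51.9% of Tu2, against 62.7% of Tu5.

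Tu7 rested on 1 locus more than any other chromosome. Tu7:700664736-700668258, in the last of 10 equal parts of the chromosome, had the most fragments of the library (426036, or 26.2% of Tu7) at 5329 FPKM (5313 to 5346). By FPKM it was lower than both Tu5 loci, over a longer transcript. Its derived length of 3528 nt matched its span of 3523 bp, as for an unspliced locus. The same held for the first locus of Tu1 with an identifier, Tu1:53941500-53946978. It had 581 FPKM (576 to 585), 74357 fragments and a derived length of 5482 nt over 5479 bp.

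On the other chromosomes the first locus with an identifier had fewer fragments than those of Tu2, Tu5 and Tu7. Tu4:195325061-195327842 had 4386 FPKM (4358 to 4413) and 103451 fragments, or 9.74% of its chromosome. Tu3:23239328-23240502 had 4221 FPKM (4192 to 4251) and 82462 fragments, or 9.62%. Tu6:179389929-179391253 had 3026 FPKM (3002 to 3051) and 61886 fragments, or 7.07%. Their derived lengths were 1241, 1076 and 1113 nt, each shorter than its span.

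A high FPKM also occurred on few fragments among loci with an identifier. The third highest of those that spanned 1000 bp or more, Tu3:294811896-294813884, had 13384 FPKM with limits of 10027 to 16741, from 63.6 fragments. It stood next to the Tu5 pair by FPKM, with far fewer fragments. At 211 FPKM per fragment, its effective length was far below its span of 1989 bp.

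Loci without an identifier were dominated by a few as well. Those with 1000 or more fragments numbered 61 of 7939 and held 60.5% of the fragments of that kind, and the first 10 held 41.7%. Tu1:554480071-554481248 led with 109489 fragments and 4965 FPKM (4935 to 4995). It was the most abundant locus of Tu1, with or without an identifier, and held 13.4% of that chromosome and 66.6% of its fragments without an identifier. It lay 89.0 kb from the nearest locus with an identifier. Tu1 was also the chromosome with the largest share of its fragments at loci without an identifier, at 20.1%, against 3.67% on Tu5.

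On the other chromosomes, the first locus without an identifier lay closer to a gene. Tu2:559010927-559012361 had 53354 fragments and 1879 FPKM (1863 to 1895) and lay 2.00 kb from a locus with an identifier. Tu3:46787749-46788802 had 22373 fragments and 1178 FPKM (1162 to 1194), at 1.69 kb. Tu6:25282471-25283382 had 16066 fragments and 1037 FPKM (1021 to 1054), at 3.03 kb. All 3 were chosen for having most fragments, so that they exceed the median of 81.0 for a detected locus with an identifier carries no information.

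The lowest of the first loci were those of Tu4 and Tu5. Tu4:333026888-333028267 had 11002 fragments and 407 FPKM (399 to 415), at 1.64 kb, and Tu5:108701259-108702825 had 5541 fragments and 175 FPKM (170 to 180), at 11.1 kb. For all 6 loci named so far, Tu1 included, the derived length was within 1 nt of the span, so each behaved as unspliced, although those up to 1500 bp also belong to the loci on which the line was fitted. The Tu7 locus, Tu7:678049467-678049766, spanned only 300 bp, where the line does not apply. It had 30669 fragments and 30752 FPKM (30401 to 31104), which is more than either gene of the Tu5 pair by FPKM and far less by fragments, and it lay 0.975 kb from a locus with an identifier.

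Along the chromosomes, the outer 2 of 10 equal parts held 36.9% of the listed loci and 29.3% of the fragments. Loci with an identifier were detected there at 27.4%, against 46.3% in the fourth to sixth parts, and this order was seen on each of the 7 chromosomes. The outer parts held from 19.2% of the fragments on Tu5 to 48.5% on Tu1, where the locus without an identifier described above lies. Loci without an identifier were spread more evenly than all listed loci, with 24.9% in the outer 2 parts and 28.1% in the fourth to sixth. Per part they were still more frequent at the ends. The first and last parts held 12.2% and 12.7%, against 8.97%, 10.0% and 9.09% in the fourth to sixth.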

How the data were processed

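One wheat leaf library was analysed. The authors deposited FPKM values per locus with lower and upper confidence limits, made with Cufflinks, and the submitters' processing notes also named CASAVA and TopHat2 2.0.12. The Cufflinks version is not given in the sources used here. The labels name B73 RefGen_v4, a maize build, but the wheat loci are on Tu1 to Tu7, so their build is another one, which is not given in the sources used here. No raw count was used.

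Starts were taken as counted from 0 in the table and are given here counted from 1. All spans, the 125-bp spans included, rest on this choice. Implied fragments were whole within 0.02 at 67.3% of loci above 0 (89.4% without and 55.6% with an identifier), so sums over loci with an identifier are approximate. At large counts, the rounding of FPKM and its limits can by itself move implied fragments off a whole number by more than 0.02. For loci with several isoforms or shared reads, the derived transcript length is approximate too. Intervals cover counting error only, and PCR copies are not independent. The FPKM limits may hold more than counting error, above all where fragments are not whole beyond rounding. A wider limit lowers the implied fragments and the derived length, and raises FPKM per fragment. The status column marked 47 loci as LOWDATA, 25 of them at 0, and 3 as FAIL, and all were kept.

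Named loci were, with and without an identifier, the one with most fragments on each chromosome and the 2 with the highest FPKM, and the 3 highest with an identifier of at least 1000 bp. Members, lists and thresholds were chosen with earlier results of these data known. Python 3.11.15, pandas 2.3.3, NumPy 2.4.6, SciPy 1.17.1 and matplotlib 3.10.9 were used. The derivation of fragments and of the line was tested on simulated data. Alternatives changed the detection minimum, the limit used, the span limit, the measure and the most abundant loci.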

Additional observations from a re-analysis of the deposited data

How the results depend on the processing

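With 1 library, no replicate could be left out, and no value was log-transformed or given a pseudocount. The number of detected loci was 21458 and fell to 9938 at 50 or more fragments, the only one of 4 other minimums that moved it by over 1.5 times. The share of detected loci without an identifier was 36.1%. It became 41.3% at an FPKM of 1 or more, 34.6% at any FPKM above 0, 11.7% at 50 or more fragments and 18.5% at spans of 300 bp or more. Implied fragments from the lower limit left all 4 fragment shares within counting error. The 2 limits mostly lie equally far from FPKM, with a median ratio of 1 between the fragments they imply. This setting is therefore no independent check of the derivation.

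Loci with whole fragments gave 17.6% of fragments without an identifier (main value 8.05%), 21.9% on Tu2 (25.3%), 12.5% on Tu1 (8.28%) and 11.2% at the first 10 loci (24.6%). This setting tends to drop loci with many fragments, since rounding alone can make a large count not whole. Its shifts may thus follow in part from the filter itself, and how much was not tested. Spans of 300 bp or more gave 6.60%, 25.5%, 8.25% and 24.98%. FPKM in place of fragments gave 99.99%, 15.7%, 15.2% and 5.12%, and FPKM times span gave 99.9%, 11.1%, 9.79% and 36.6%. Without the 10 loci with most fragments the first 3 shares were 10.7%, 22.1% and 10.99%. Without loci of 10000 or more, an alternative chosen after seeing the data, they were 11.1%, 16.6% and 13.4%. Tu2 was highest in each setting except both FPKM settings, where Tu3 (17.5%) and Tu6 (21.4%) were. Tu1 was lowest except with whole fragments (Tu4, 12.2%), both FPKM settings (Tu6, 9.69%, and Tu5, 8.86%) and without loci of 10000 or more (Tu6, 12.2%). Without loci that overlap one with an identifier, chosen after seeing the data, 7.28% of fragments lacked an identifier.

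The share of the FPKM sum under 300 bp (95.7%) was 93.0% under 150 bp, 96.8% under 500 bp, 95.6% among detected loci and 1.55% by fragments. The line between 700 and 1500 bp, also added later, gave the same mean fragment of 284 bp. No paired analysis was possible because each group had 1 library.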

Other observations

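Several loci carried more than 1 gene. At 182 loci the table joined several identifiers, and 27 identifiers were listed at more than 1 locus. The fragments of these genes cannot be assigned to a single member.

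The 3 loci with FAIL status all carried an identifier and had lower limits of 0. The locus at Tu3:398121105-398134186 had 1372 FPKM with an upper limit of 1456. An overlapping locus at Tu3:398121401-398135877 had 193 FPKM with an upper limit of 270352, and Tu5:218071394-218080047 had 580 FPKM with an upper limit of 45759. The last 2 had less than 1 implied fragment and were therefore not counted as detected. Of the 47 LOWDATA loci, 3 were detected.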
